A study of Homo sapiens with 8 samples.

Results

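The stitched enhancers that joined 10 or more H3K27Ac peaks were described in 4 medulloblastoma (MB) lines. ROSE, the program that the authors used, joins neighbouring H3K27Ac peaks into 1 stitched enhancer and records how many peaks each contains. The regions were chosen by that recorded number alone, and they numbered 2494 of 88550 stitched enhancers. MB002 had 702 of 26072, D425 had 1077 of 26317, HD-MB03 had 227 of 15286 and UW228 had 488 of 20875. They made up 2.69%, 4.09%, 1.49% and 2.34% of the enhancers of these lines, in the same order. All other stitched enhancers had from 1 to 9 peaks.

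MB002, D425 and HD-MB03 are lines of Group 3 medulloblastoma (G3-MB), whereas UW228 is labelled as a line of the SHH subtype. No line was treated, and each was profiled once, with 1 library of H3K27Ac and 1 of input. Without replicates, every comparison is a description and carries no test. By the study's methods, D425 and UW228 grew in DMEM with 10% FBS, and MB002 and HD-MB03 grew in Tumor Stem Media, so medium and line cannot be told apart. The UW228 values were also made later, by the date in their header, than the values of the other lines, and from another folder of ROSE runs, and whether the settings were the same is not given in the sources used here. This run and the subtype cannot be told apart.

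H3K27Ac is an acetylated form of histone H3 found at active enhancers and promoters. In tumors and normal tissues alike, enhancers often lie in clusters near genes that give a cell its identity, and the clusters with the most signal are called super-enhancers (SEs), as opposed to typical enhancers (TEs). In G3-MB such clusters are known at genes of a photoreceptor program, which the transcription factors OTX2 and CRX regulate.

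The deposited signal of each enhancer was in rpm, a read count scaled to the mapped reads of its library, per bp, multiplied by its length. Input was subtracted, negative remainders were set to 0, and the result was divided by the length to give the signal per bp. The number of reads behind these values is unknown. Input per bp over the median input per bp of the line is called relative input density, and it was 2 or more in 6 of the chosen regions (MB002), 20 (D425), 4 (HD-MB03) and 4 (UW228). Of 9 marker genes of G3-MB, 8 had an enhancer of any size (MB002), 7 (D425), 7 (HD-MB03) and 4 (UW228). SEs lay at *CRX*, *MYC* and *OTX2* in MB002 and in D425, at *IMPG2* and *OTX2* in HD-MB03, and at none of these genes in UW228. Of all genes, 51.5% (MB002), 52.8% (D425), 40.6% (HD-MB03) and 43.4% (UW228) overlapped or were closest to an enhancer of any size, and 1.97%, 2.47%, 1.76% and 3.84% to a SE. Of 8 marker genes of the SHH subtype, 6 had an enhancer of any size (MB002), 4 (D425), 6 (HD-MB03) and 5 (UW228). SEs lay at 3 of them in HD-MB03, *GLI1*, *PDLIM3* and *PTCH1*, and at none in UW228 or the other lines, and a region of 10 or more peaks lay at *GLI2* in MB002 alone. Of 7 mesenchymal markers, 6 had an enhancer (MB002), 4 (D425), 4 (HD-MB03) and 7 (UW228). Only in UW228 did any of them, *CD44*, *COL1A2* and *PRRX1*, lie at regions of 10 or more peaks.

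The transcription start site (TSS) of 5 genes, taken as the 5′ end of the gene, lay inside a region of 10 or more peaks in all 3 G3-MB lines. *NDST1* and *MTSS2* had the TSS inside such a region of UW228 as well, whereas *TRAK1*, *STOM* and *MRPS23*, a gene of the mitochondrial ribosome, had it in no UW228 enhancer of any size. Promoters are shown for 4 of these genes, since these starts lay inside such regions in at least 3 lines. The same held for *TRAK1*, whose promoter was not analysed here. The 250 bases before the TSS are from RefSeq (GRCh38.p14), are written 5′ to 3′ on the strand of the gene, and carry capitals where a searched motif was found. The motifs, searched on both strands, were TAATCC, which homeodomain factors such as OTX2 and CRX bind, TGAGTCA, the AP-1 site, and the E-boxes CAGCTG and CAGATG. Neighbouring matches could share bases.
NDST1, chr5:150497529-150497778, plus strand: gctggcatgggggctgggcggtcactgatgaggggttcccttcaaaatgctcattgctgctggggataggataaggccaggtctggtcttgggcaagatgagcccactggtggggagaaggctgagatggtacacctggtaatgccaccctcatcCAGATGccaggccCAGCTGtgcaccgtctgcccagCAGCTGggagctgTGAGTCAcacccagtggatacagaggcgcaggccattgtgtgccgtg
MTSS2, chr16:70686054-70686303, minus strand: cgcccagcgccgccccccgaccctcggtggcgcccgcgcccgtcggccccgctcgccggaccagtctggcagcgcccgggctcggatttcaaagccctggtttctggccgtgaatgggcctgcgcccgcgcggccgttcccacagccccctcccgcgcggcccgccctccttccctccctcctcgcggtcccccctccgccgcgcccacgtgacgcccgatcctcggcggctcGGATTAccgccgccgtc
STOM, chr9:121370251-121370500, minus strand: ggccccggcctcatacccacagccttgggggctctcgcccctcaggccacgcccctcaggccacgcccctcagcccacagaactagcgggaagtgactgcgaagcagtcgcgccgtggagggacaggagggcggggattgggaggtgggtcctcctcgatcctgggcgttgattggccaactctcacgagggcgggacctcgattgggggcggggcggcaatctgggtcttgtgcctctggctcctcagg
MRPS23, chr17:57850045-57850294, minus strand: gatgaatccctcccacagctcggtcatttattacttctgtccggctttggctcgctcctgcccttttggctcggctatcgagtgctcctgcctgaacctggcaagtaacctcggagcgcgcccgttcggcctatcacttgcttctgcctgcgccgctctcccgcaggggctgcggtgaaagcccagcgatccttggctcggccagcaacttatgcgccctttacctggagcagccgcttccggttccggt
The *NDST1* promoter held 1 AP-1 match, 2 matches to CAGCTG and 1 to CAGATG. The *MTSS2* promoter held 1 match to TAATCC, on the other strand. Those of *STOM* and *MRPS23* held no match in this window. Among 27305 RefSeq promoters of the same length, 5.67% held TAATCC, 4.16% the AP-1 site, 13.8% CAGCTG and 12.2% CAGATG. A TSS inside a stitched region does not show that a counted peak lay on it. The methods exclude peaks close to a TSS, but 305 single-peak enhancers of MB002, 212 of D425, 439 of HD-MB03 and 129 of UW228 held a TSS as defined here, so not all such peaks were removed.

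The regions of 10 or more peaks were long. Their median length was 43.2 kb (MB002), 38.6 kb (D425), 51.2 kb (HD-MB03) and 55.0 kb (UW228). For enhancers with fewer peaks the medians were 1.49 kb, 1.15 kb, 1.34 kb and 2.15 kb, respectively. Length and number of peaks are tied, since each added peak extends the stitched region. The shortest region of 10 or more peaks spanned 9.07 kb, inside *WWTR1* in D425, a gene that encodes the transcriptional coactivator TAZ. The longest spanned 233 kb in UW228. Although few, these regions held 15.1% of all peaks and 24.5% of the enhancer signal in MB002, and 23.4% and 32.0% in D425. In HD-MB03 they held 11.3% and 13.2%, and in UW228 14.3% and 21.7%. In the 3 G3-MB lines they made up 21.3% (MB002), 30.5% (D425) and 15.9% (HD-MB03) of the summed length of all enhancers. Their share of the peaks follows from the choice by number of peaks.

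Peaks covered the smaller part of most of these regions. The median peak fraction, the summed length of the peaks over the length of the region, was 0.339 (MB002), 0.295 (D425), 0.298 (HD-MB03) and 0.420 (UW228). Enhancers of 2 to 9 peaks had medians of 0.418, 0.367, 0.357 and 0.491. Between neighbouring peaks of a region of 10 or more peaks lay a median of 2404 bp (MB002), 2034 bp (D425), 2923 bp (HD-MB03) and 2424 bp (UW228). The median of the mean peak length was 1103 bp, 787 bp, 1170 bp and 1642 bp, against 666 bp, 505 bp, 901 bp and 1099 bp for enhancers of 2 to 9 peaks. UW228 had the longest peaks and the highest peak fraction of the 4 lines, and D425 the shortest peaks.

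Signal per bp over the whole length did not set the regions of 10 or more peaks far apart. The median was 0.524 rpm per bp (MB002), 0.453 (D425), 0.395 (HD-MB03) and 0.695 (UW228). For all enhancers with fewer peaks it was 0.535, 0.519, 0.510 and 0.648, so the regions of 10 or more peaks were lower in the 3 G3-MB lines and higher in UW228. The quartiles of both classes overlapped widely in every line. Against enhancers of 2 to 9 peaks, whose medians were 0.444, 0.424, 0.378 and 0.580, the direction in the G3-MB lines turned. Per bp of peak, that is with the whole signal divided by the summed length of the peaks, the direction turned as well, with medians of 1.51, 1.54, 1.38 and 1.65 against 0.828, 0.859, 0.727 and 0.988 for all enhancers with fewer peaks.

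Among regions of similar length the picture was more uniform. Of 30 to 50 kb in length were 350 regions of 10 or more peaks (MB002), 484 (D425), 101 (HD-MB03) and 180 (UW228). Within this range they were still the longer ones, with a median of 39.5 kb, 37.8 kb, 41.8 kb and 40.5 kb against 35.1 kb, 33.8 kb, 35.4 kb and 35.2 kb for regions with fewer peaks. Their median signal per bp was 0.454, 0.430, 0.429 and 0.645, against 0.406, 0.269, 0.338 and 0.560 for regions of that range with fewer peaks. Their median peak fraction was 0.316, 0.282, 0.322 and 0.409, against 0.260, 0.166, 0.244 and 0.333. Per bp of peak, however, they were lower in every line, at 1.42, 1.53, 1.32 and 1.56 against 1.51, 1.62, 1.42 and 1.65. Within this range of length they thus had more of their sequence in peaks, and slightly less signal per bp of peak. The latter counts the signal of the gaps too, so it does not show how strong the peaks were. The median gap was 2453 bp, 2273 bp, 2718 bp and 2234 bp, against 4045 bp, 4428 bp, 4849 bp and 3786 bp with fewer peaks.

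**Figure D1:**
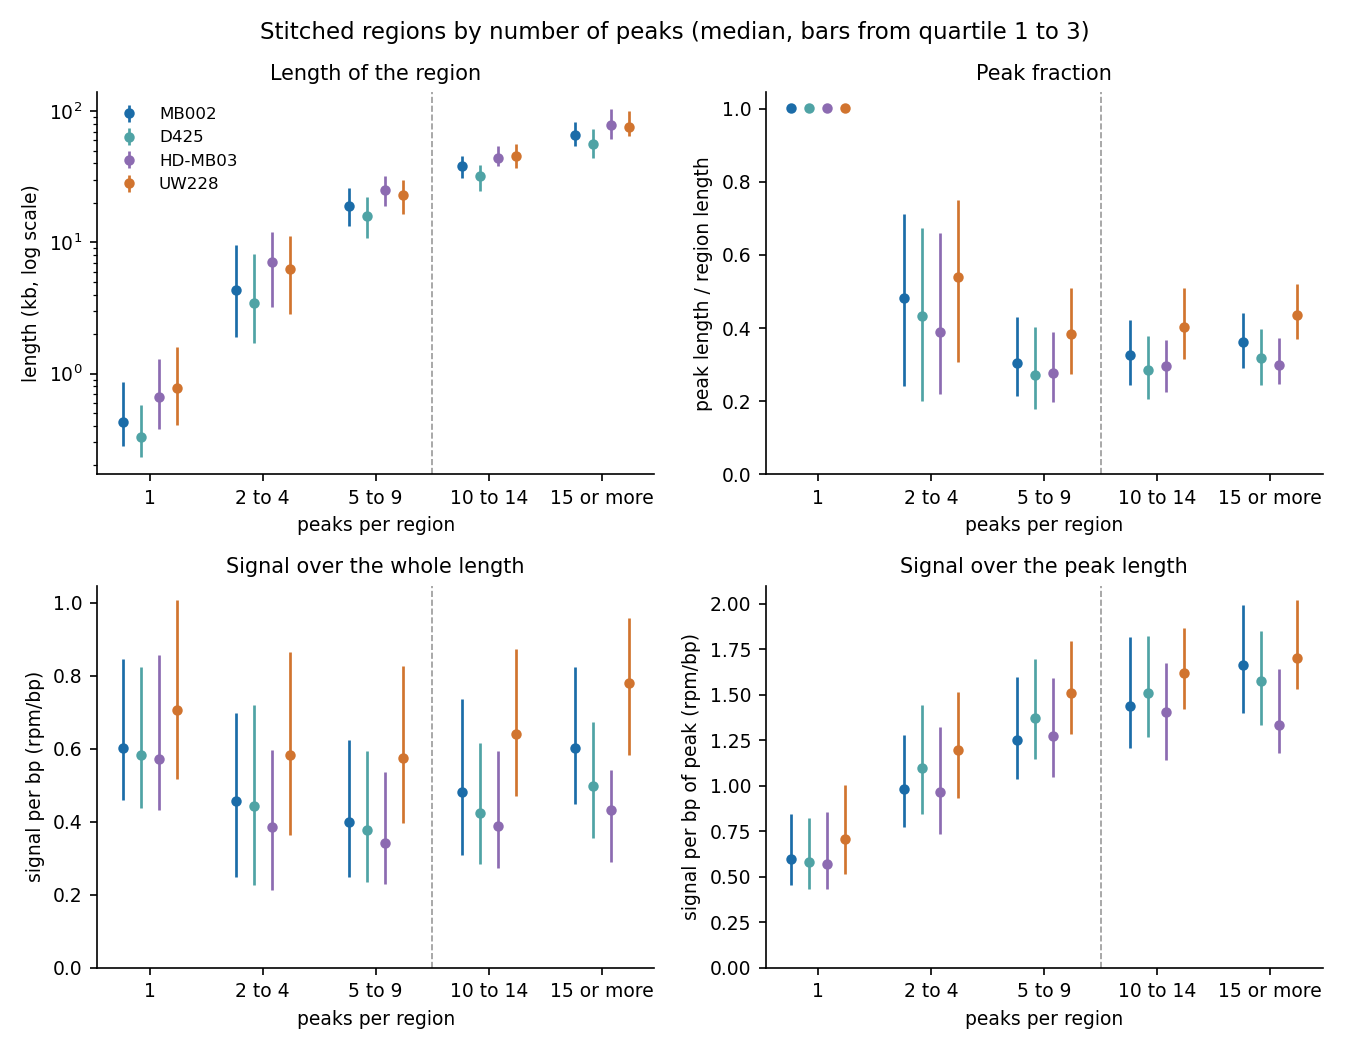
Length (kb, log scale), peak fraction, signal per bp and signal per bp of peak (both in rpm per bp) of stitched regions by number of peaks in the 4 lines. Points are medians over regions, bars run from the first to the third quartile, and the dashed line marks the minimum of 10 peaks. Length was larger in every class of more peaks, and signal per bp of peak was larger up to 10 to 14 peaks in each line and lower again at 15 or more in HD-MB03, while signal per bp over the whole length stayed between 0.3 and 0.8 at the median.

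The minimum of 10 did not mark a break. Regions of exactly 10 peaks numbered 159 (MB002), 208 (D425), 52 (HD-MB03) and 104 (UW228), and regions of exactly 9 numbered 219, 245, 59 and 159. The median length was 33.1 kb, 29.7 kb, 40.3 kb and 39.1 kb with 10 peaks and 29.7 kb, 23.9 kb, 37.5 kb and 35.6 kb with 9. The median signal per bp was 0.428, 0.431, 0.328 and 0.639 with 10 peaks and 0.455, 0.399, 0.353 and 0.604 with 9. SEs made up 10.1%, 11.5%, 17.3% and 47.1% of the regions of 10 peaks and 10.5%, 6.53%, 18.6% and 42.1% of those of 9.

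Many regions of 10 or more peaks were TEs. SEs, as called by the authors, numbered 232 of 702 (MB002), 324 of 1077 (D425), 100 of 227 (HD-MB03) and 361 of 488 (UW228). These are 33.0%, 30.1%, 44.1% and 74.0%. Among all enhancers of these lines, 1.39%, 1.64%, 1.98% and 3.61% were SEs. ROSE ranks enhancers by total signal, which grows with length, so nothing follows from this excess. Conversely, the regions of 10 or more peaks held 63.9% of the SEs of MB002, 75.2% of those of D425, 33.1% of those of HD-MB03 and 47.9% of those of UW228. HD-MB03 had most of its SEs, 202 of them, at enhancers of fewer peaks, with a median of 3 peaks and 18.3 kb. Among regions of 30 to 50 kb, SEs made up 19.4%, 21.3%, 30.7% and 54.4% of those with 10 or more peaks and 13.2%, 8.91%, 17.1% and 38.5% of those with fewer. With 20 or more peaks, 84.3%, 74.1%, 81.8% and 100% were SEs.

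**Figure D2:**
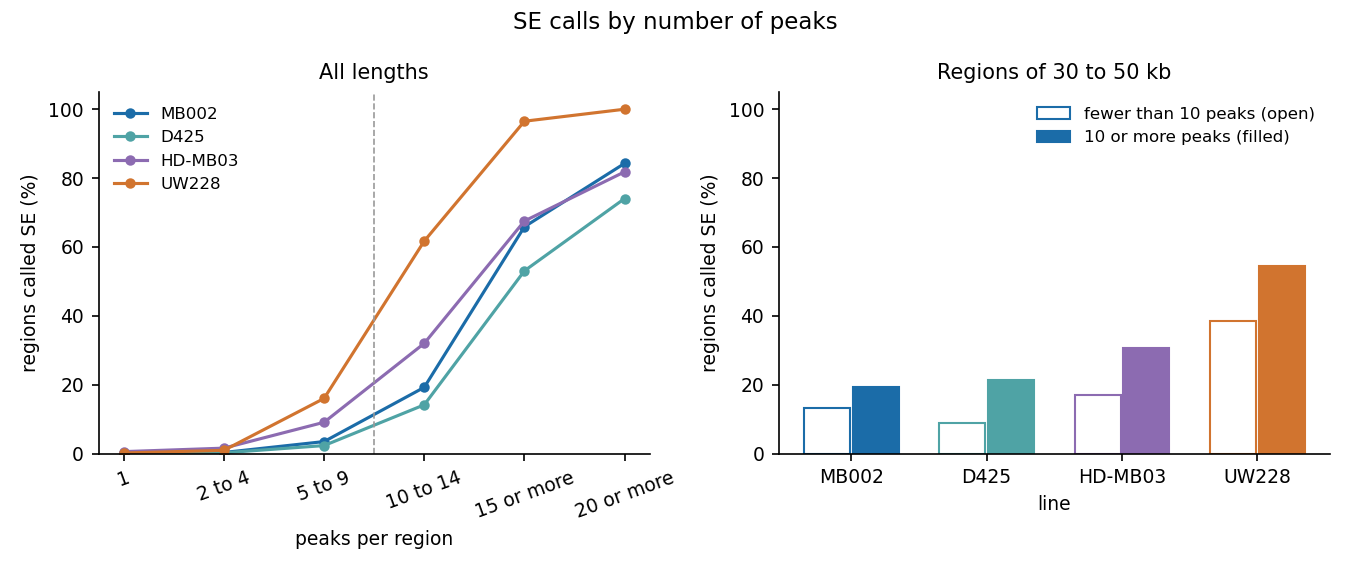
Share of regions called SE (%) by number of peaks, for all lengths on the left and for regions of 30 to 50 kb on the right, in the 4 lines. The class of 15 or more peaks includes that of 20 or more, and the dashed line marks the minimum of 10 peaks. UW228 lay above the G3-MB lines from 5 peaks upwards, and filled bars were higher than open bars in every line.

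SEs and TEs of 10 or more peaks differed in coverage. The SEs had a median peak fraction of 0.407 (MB002), 0.366 (D425), 0.349 (HD-MB03) and 0.442 (UW228), and the TEs 0.297, 0.269, 0.246 and 0.339. The median signal per bp was 0.838, 0.737, 0.571 and 0.786 in the SEs and 0.407, 0.377, 0.293 and 0.450 in the TEs. The SEs were also longer, with medians of 59.4 kb, 58.6 kb, 60.9 kb and 60.8 kb against 38.4 kb, 33.6 kb, 44.4 kb and 37.2 kb. The call rests on total signal, the signal per bp times length, so none of these differences is independent of the call.

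In MB002 the region with the most peaks had 56 and lay inside *AUTS2*, a regulator of neurodevelopment, on chromosome 7 from 69812749 to 69967837. It was 155 kb long, had a peak fraction of 40.3%, a signal of 0.599 rpm per bp and rank 34 of the line, and was a SE. A second SE, of 26 peaks and 81.9 kb, lay before it. In all, 7 regions of 10 or more peaks overlapped *AUTS2* in MB002, of which 6 lay wholly inside the gene and 2 were SEs. *AUTS2* had the most such regions inside 1 gene in MB002, followed by *ASTN2*, *CDKAL1* and *TSNAX-DISC1* with 3 each, named after their values were seen. These genes are long, at 1195 kb, 992 kb, 698 kb and 513 kb, and a long gene has room for more regions. D425 had 1 region at *AUTS2*, a TE of 11 peaks at rank 2294, and HD-MB03 and UW228 had none.

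Regions that lay inside or across a gene are named here by that gene also where another TSS was closer to the centre. The next regions of MB002 had 42 peaks at *CNN3*, which encodes the actin-binding calponin 3, 42 peaks inside *MCC*, 39 peaks near *GALNT10*, an enzyme of O-glycosylation, and 36 peaks inside *AMBRA1*, a regulator of autophagy. Their lengths were 173 kb, 112 kb, 123 kb and 90.5 kb, and they ranked 17, 99, 65 and 146. All 4 were SEs. Their relative input densities lay from 0.994 to 1.47.

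In D425 the 5 regions with the most peaks had 83, 71, 67, 65 and 57 peaks. The first, from 47428531 to 47651486 on chromosome 7, held the TSS of *TNS3*, a tensin of focal adhesions, and was 223 kb long with a signal of 0.418 rpm per bp and rank 21. UW228 had a region of 47 peaks at the same gene, 172 kb long, with 0.915 rpm per bp and rank 6. The second of D425 held the TSS of *ENAH*, an Ena/VASP protein of the actin cytoskeleton, and ranked 4, the best rank of any region of 10 or more peaks in that line. The others lay near the pseudogene *SPATA31D5P*, at *SPTBN1-AS1* beside the spectrin gene *SPTBN1*, and at *LINC01713*, with ranks 213, 10 and 26. The *SPATA31D5P* region had short peaks, with a mean of 469 bp, and a signal of 0.319 rpm per bp.

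In HD-MB03 *MAD1L1*, a gene of the spindle checkpoint, held both regions with the most peaks. They had 66 and 49 peaks, were 174 kb and 135 kb long, and lay side by side on chromosome 7 between 1848172 and 2172509. Their signal was 0.354 and 0.539 rpm per bp, and they ranked 28 and 14. The next regions lay inside *RAI1*, a transcriptional regulator, with 39 peaks and rank 25, and inside *VAV2*, an exchange factor of small GTPases, with 38 peaks and rank 217. Only 17.8% of the *VAV2* region was peak, and its signal was 0.193 rpm per bp.

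In UW228 the region with the most peaks, 57, was 233 kb long, lay on chromosome 2 from 160203052 to 160436521 at *LINC02478*, and ranked 2. The next had 50 peaks at *GRAMD2B*, 47 at *TNS3*, 41 inside *DIP2B* and 39 at *TGM2*, which encodes a transglutaminase that crosslinks proteins. They ranked 3, 6, 45 and 15. All 5 were SEs, and their peak fractions lay from 35.9% to 61.7%.

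The best rank did not always fall to a region with many peaks. Rank 1 of UW228 was a region of 17 peaks and 165 kb at *LINC03033* on chromosome 14, of which 88.6% was peak. Its mean peak length was 8613 bp, and it had the highest signal of the UW228 regions of 10 or more peaks, 2.22 rpm per bp. Rank 1 of MB002 was a region of 11 peaks and 39.1 kb at *SLC35F4*, also on chromosome 14, with 31.1 rpm per bp, but its relative input density was 46.4. In HD-MB03 the best rank of a region of 10 or more peaks, 3, belonged to one of 16 peaks near *ZFAT-AS1* with 8.87 rpm per bp and a relative input density of 56.1. Signal and input thus moved together at these 2 regions, and the part of the input in the signal was not tested. Among the D425 regions of 10 or more peaks, the highest signal, 3.39 rpm per bp, and the highest peak fraction, 91.0%, were those of a region of 18 peaks at *BCL2L1-AS1* on chromosome 20, beside the survival gene *BCL2L1*, at a relative input density of 1.67.

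At the other end lay regions of barely more than the minimum number of peaks. The worst rank among the regions of 10 or more peaks was 6470 in MB002, inside *NPNT*, 5629 in D425, inside *LRRFIP1*, 2396 in HD-MB03, inside *GRK5*, and 3321 in UW228, inside *MAP4K4*. These regions had 11, 10, 10 and 10 peaks, and peaks covered 10.3%, 9.75%, 13.2% and 41.9% of them. The *NPNT* region had the lowest signal of all regions of 10 or more peaks in MB002, 0.0707 rpm per bp over 41.8 kb. The lowest peak fraction of the regions of 10 or more peaks of any line was 7.48%, inside *FNDC3B* in D425, with 11 peaks of a mean of 326 bp over 47.9 kb.

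At most loci of these regions at least 1 other line had an H3K27Ac enhancer. Only 25 regions of MB002 (3.56%), 75 of D425 (6.96%), 7 of HD-MB03 (3.08%) and 36 of UW228 (7.38%) overlapped no enhancer of any other line, at 1 bp or more. For enhancers with fewer peaks the shares were 41.3%, 41.7%, 25.8% and 58.7%. Longer regions overlap other enhancers more easily. Taken line by line, enhancers were lacking more often. No UW228 enhancer lay at 43.4% of the MB002 regions, and no HD-MB03 enhancer at 38.4% of the D425 regions and 39.1% of the UW228 regions. Over the 12 pairs the lowest share was 9.69%, for HD-MB03 regions in MB002. For enhancers with fewer peaks these 4 shares were 80.7%, 71.4%, 82.3% and 39.2%, in the same order. A region of 10 or more peaks in at least 1 other line was overlapped by 244 MB002 regions (34.8%), 324 D425 regions (30.1%), 117 HD-MB03 regions (51.5%) and 154 UW228 regions (31.6%). Of the enhancers with fewer peaks, which are shorter, 6.23%, 6.22%, 11.7% and 7.13% did so. With 15 or more peaks, 45.7%, 39.2%, 67.5% and 42.4% did so, and with 10 to 14 peaks 30.2%, 23.7%, 43.3% and 25.6%.

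Pair by pair, the shares followed in part how many such regions the other line had. Of the regions of MB002, 26.8% overlapped one of D425, 9.40% one of HD-MB03 and 7.12% one of UW228, against 4.31%, 1.32% and 2.28% of all MB002 enhancers. Of the regions of D425, 17.6% overlapped one of MB002, 7.06% one of HD-MB03 and 12.1% one of UW228, against 3.8%, 1.41% and 2.67% of all D425 enhancers. Of the regions of HD-MB03, 28.6% overlapped one of MB002, 34.4% one of D425 and 11.9% one of UW228, against 5.59%, 6.2% and 2.96% of all HD-MB03 enhancers. Of the regions of UW228, 10.0% overlapped one of MB002, 25.4% one of D425 and 5.53% one of HD-MB03, against 2.69%, 5.16% and 1.12% of all UW228 enhancers. The regions of MB002, HD-MB03 and UW228 thus all had their largest share with D425, which had the most such regions. D425 had its medium in common with UW228 alone, and the part of the medium was not tested.

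Among regions of 30 to 50 kb, those of 10 or more peaks overlapped such a region of the other line more often than those with fewer peaks in 11 of 12 pairs. The gap was small, and the regions of 10 or more peaks were also the longer ones within this range, whose part in the gap was not tested. In MB002 against D425 the shares were 24.3% and 17.2%, and in UW228 against D425 19.4% and 13.8%. The exception was HD-MB03 against UW228, with 4.95% and 8.17%.

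Most often the other line had only enhancers of fewer peaks there. This held for 62.4% of the MB002 regions in D425, and the shares of all 12 pairs lay from 49.4% to 69.5%. Summed over its enhancers, D425 had a median of 7 peaks at an MB002 region, HD-MB03 had 3 and UW228 had 1. At the D425 regions MB002 had a median of 4 peaks, HD-MB03 had 1 and UW228 had 2. At the HD-MB03 regions the medians were 7 in MB002, 8 in D425 and 3 in UW228, and at the UW228 regions they were 3 (MB002), 5 (D425) and 1 (HD-MB03).

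**Figure D3:**
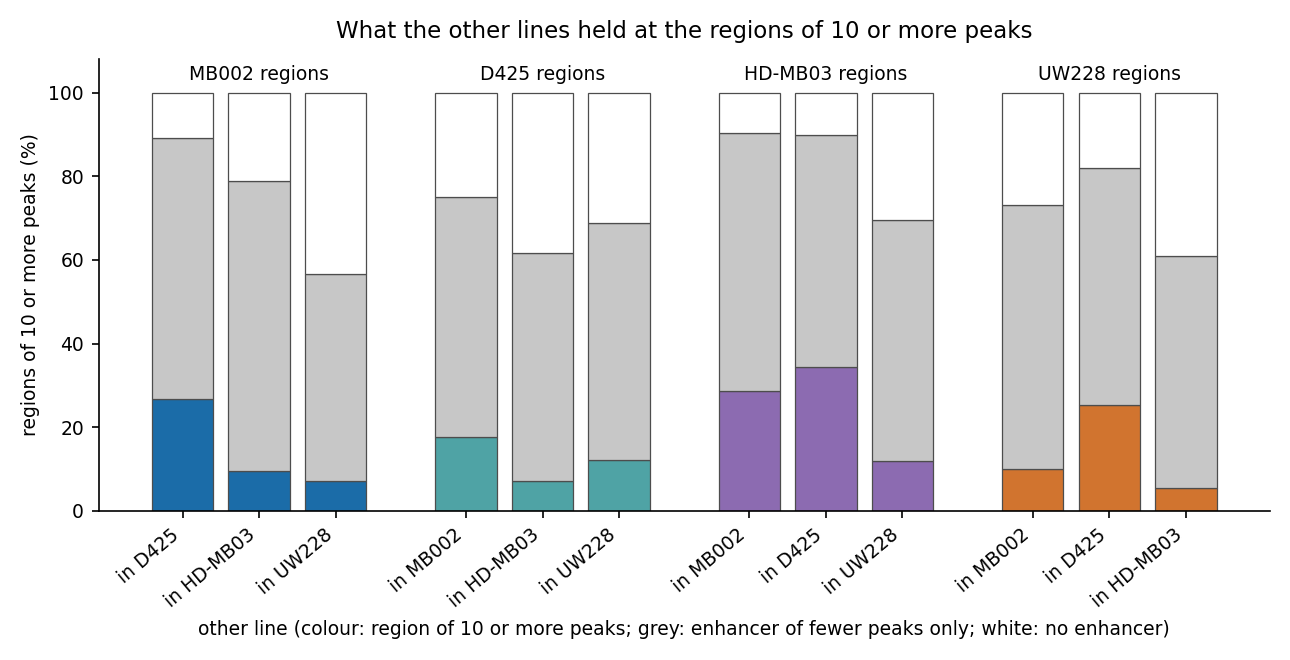
Share of the regions of 10 or more peaks (%) of each line that overlapped a region of 10 or more peaks of another line (colour), only enhancers of fewer peaks (grey) or no enhancer (white). The coloured part was largest for HD-MB03 regions in D425, at 34.4%, and smallest for UW228 regions in HD-MB03, at 5.53%.

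Merged over the lines, the regions formed 2026 loci. Of these, 1655 had a region of 10 or more peaks in a single line, 309 in 2 lines, 52 in 3 lines and 10 in all 4. Single-line loci numbered 753 in D425, 458 in MB002, 334 in UW228 and 110 in HD-MB03. Of the loci of 2 lines, 134 were of MB002 and D425, 83 of D425 and UW228, 34 of D425 and HD-MB03 and 31 of MB002 and HD-MB03.

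At each of the 10 loci of all 4 lines a part was covered by such regions in every line. This part was a single stretch of 13.6 kb to 62.9 kb at 9 loci, longest at *TRAK1*. At the remaining locus, *CUEDC1* on chromosome 17 from 57805858 to 57972476, it was split into 2 stretches of 47.8 kb and 33.6 kb, 81.4 kb in all. The largest region there had 33 peaks (MB002), 20 (D425), 15 (HD-MB03) and 27 (UW228). The signal over all enhancers of this locus was 2.24 rpm per bp (MB002), 1.58 (D425), 0.715 (HD-MB03) and 1.05 (UW228). The relative input density at the locus reached 3.01 in D425.

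At *RAI1* the largest region had 10 peaks (MB002), 25 (D425), 39 (HD-MB03) and 19 (UW228), and the best ranks of any enhancer at the locus were 1725, 39, 25 and 562. At *TRAK1*, an adaptor for the transport of mitochondria, it had 21, 34, 20 and 16 peaks, with best ranks of 220, 57, 12 and 863. At *MTSS2*, which encodes a membrane-bending regulator of actin, it had 20, 40, 15 and 11 peaks, with best ranks of 259, 40, 65 and 1156. At *TRAK1* and *MTSS2* the region was a SE in the 3 G3-MB lines and a TE in UW228.

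At *TEAD1*, a transcription factor of the Hippo pathway, the largest region had 26 peaks (MB002), 19 (D425), 10 (HD-MB03) and 22 (UW228). It lay inside the gene in each line, and it was a TE in HD-MB03 alone. At *AHDC1* the numbers were 10, 13, 23 and 28, at *NDST1*, an enzyme of heparan sulfate synthesis, 12, 17, 16 and 20, and at *ACTN1*, the alpha-actinin of non-muscle cells, 11, 12, 14 and 19. The remaining loci lay at *KIAA1671*, with 13, 13, 11 and 17 peaks, and at the immediate-early gene *IER5*, with 12, 14, 12 and 12. UW228 had the highest number of peaks at *AHDC1*, *NDST1*, *ACTN1* and *KIAA1671*. Only the *CUEDC1* and *NDST1* loci held a SE in every line.

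A further 22 loci had a region of 10 or more peaks in all 3 G3-MB lines and not in UW228. UW228 had no enhancer of any size at 7 of them, *CASZ1*, *TSPAN9*, *CERKL*, *NINL*, *PWWP2B*, *MTSS1* and the lower of 2 loci in *GSE1*. At the other 15 it had enhancers of 1 to 8 peaks, and 2 of these loci held a UW228 SE, at *B4GALT1* and *TGFB2*. A lack of 10 peaks in UW228 therefore did not mean a lack of signal. Over all regions of 10 or more peaks, no UW228 enhancer lay at 43.4% (MB002), 31.1% (D425) and 30.4% (HD-MB03), so 7 of 22 loci is no unusual share. The loci of all 4 lines at *KIAA1671* and *IER5*, and of the 22 those at *CASZ1*, *TSPAN9*, *CERKL*, *NINL*, *PWWP2B*, *MTSS1*, *TGFB2* and *CORO2B*, are named beyond the naming rule, after their values were seen.

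One of these loci lay inside *MSI2*, which encodes an RNA-binding protein of stem and progenitor cells, on chromosome 17 from 57499805 to 57641031. The largest region had 24 peaks (MB002), 40 (D425) and 21 (HD-MB03), at ranks 5, 6 and 13, whereas the largest UW228 enhancer had 2 peaks and the best UW228 rank was 11027. The signal over all enhancers there was 3.44, 2.08, 0.640 and 0.355 rpm per bp. This region had the highest peak fraction of the MB002 regions of 10 or more peaks, 76.8%, with a mean peak length of 4521 bp. The relative input density of the 3 regions was 1.82, 2.69 and 1.15.

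Inside *GSE1*, which encodes a coiled-coil protein of a repressor complex, the upper locus had 35 peaks (MB002), 23 (D425) and 18 (HD-MB03), at ranks 20, 41 and 20, and 5 in UW228. The lower locus had 23, 21 and 12 peaks, and no UW228 enhancer. In HD-MB03, *GSE1* and *GRK5* had 3 regions of 10 or more peaks each, the most inside 1 gene in that line. Inside *SSBP3*, a cofactor of LIM-homeodomain complexes, the regions had 25, 26 and 25 peaks, at ranks 37, 144 and 29, and the largest UW228 enhancer had 3. At *ZMIZ1*, a transcriptional coactivator, the numbers were 17, 33 and 32 against 7 in UW228, and the ranks 531, 173 and 121.

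At *SUSD6* the largest region had 29 peaks (MB002), 25 (D425) and 15 (HD-MB03), at *B4GALT1*, a galactosyltransferase, 27, 23 and 16, and at *RAPGEF1*, an exchange factor of RAP1, 14, 32 and 11. The UW228 enhancers there had at most 3, 8 and 6 peaks. At *CASZ1*, a zinc-finger transcription factor, the numbers were 14, 15 and 25, and at *CERKL* 21, 15 and 11. The neighbouring *NEUROD1*, a transcription factor of neuronal differentiation, was reached by a region of 10 or more peaks in MB002 alone. Over all enhancers of the locus, which holds the *NEUROD1* TSS, the signal was 0.488 rpm per bp (MB002), 0.685 (D425) and 1.62 (HD-MB03). HD-MB03 had 2 SEs at the locus, with a best rank of 48, against rank 253 in MB002. *CORO2B* had 10, 14 and 31 peaks, with rank 7 in HD-MB03, and 1 peak in UW228.

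**Figure D4:**
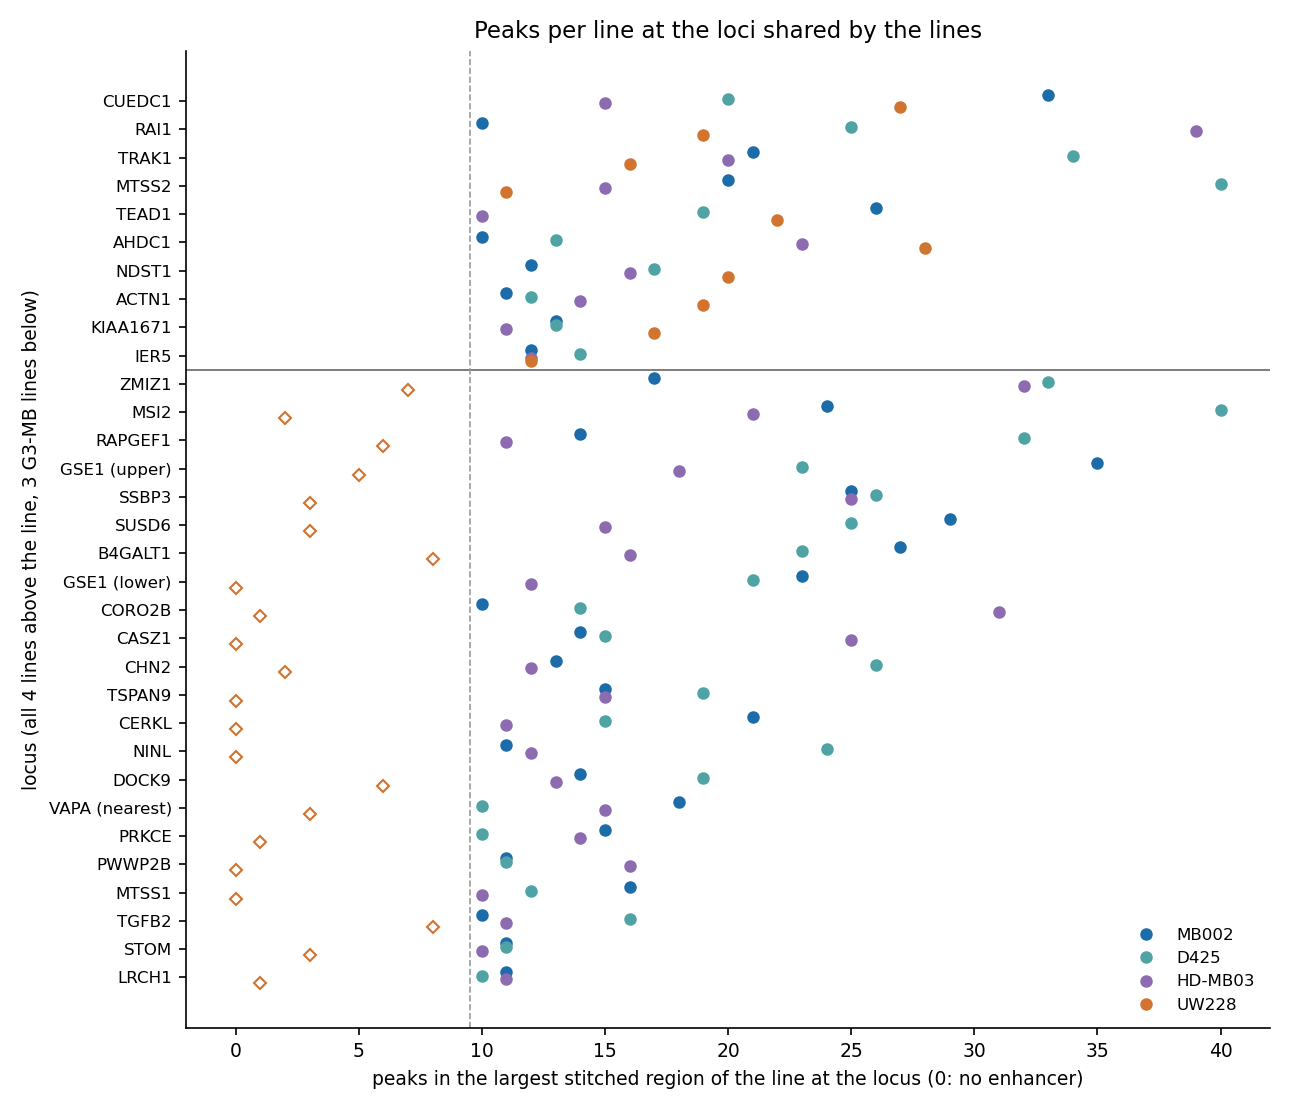
Number of peaks in the largest stitched region of each line at the 10 loci with a region of 10 or more peaks in all 4 lines (above the horizontal line) and at the 22 loci of the 3 G3-MB lines alone (below it). Filled circles are regions of 10 or more peaks, open diamonds are enhancers of fewer peaks or no enhancer, and the dashed line marks the minimum. Below the line the UW228 points lie from 0 to 8 because the loci were chosen for this.

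The 36 UW228 regions that overlapped no enhancer of the G3-MB lines included, among the 8 with the most peaks, a SE of 29 peaks and 131 kb near *PCED1B* at rank 23. Others lay at *PADI1*, an enzyme that converts arginine to citrulline, with 21 peaks and rank 95, and at *LINC01698*, with 16 peaks and rank 71. Those inside *CDCP1*, a transmembrane protein of adhesion signaling, and *ADAM12*, a metalloprotease, had 16 peaks each and ranks 243 and 465. *TPD52L1* and *KCNS1* had 15 peaks each, at ranks 42 and 119. The region near *LINC01423*, with 16 peaks and rank 788, was the 1 TE among these 8.

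Regions of 10 or more peaks often held a TSS. The shares were 30.2% (MB002), 33.8% (D425), 33.0% (HD-MB03) and 39.3% (UW228), against 5.49%, 4.62%, 7.48% and 5.41% of the enhancers with fewer peaks. They were also much longer. Per 100 kb they held 0.827, 1.01, 0.737 and 0.855 TSSs, fewer than the 1.41, 1.28, 2.08 and 1.14 of the other enhancers. Among regions of 30 to 50 kb, 28.3%, 31.6%, 26.7% and 31.7% held a TSS, against 32.2%, 34.9%, 38.9% and 31.4% of those with fewer peaks. Wholly inside 1 gene lay 50.7%, 41.8%, 45.8% and 46.5% of the regions of 10 or more peaks, fewer than the 53.5%, 53.0%, 58.7% and 54.5% of the other enhancers. Among regions of 30 to 50 kb the direction turned, with 52.3%, 39.5%, 47.5% and 52.2% against 41.2%, 32.2%, 42.4% and 43.2%.

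Some of these regions lay side by side, but most did not. Within 50 kb of another such region lay 18.1% of those (MB002), 19.3% (D425), 13.2% (HD-MB03) and 15.0% (UW228). The median distance to the next one was 495 kb, 366 kb, 1018 kb and 965 kb. The genes with the most regions inside, named after their values were seen, were *AUTS2* in MB002, *ARHGAP26* and *MACROD2* in D425, with 4 each, and *RAD51B* in UW228, with 4 that were all SEs. *RAD51B* encodes a protein of homologous recombination, and its 4 regions held 82 peaks over 334 kb. *MACROD2* is a gene of 2058 kb, so its 4 regions, none of them a SE, took up a small part of it.

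The closest TSS to the centre of these regions was that of 649 genes (MB002), 995 (D425), 221 (HD-MB03) and 459 (UW228). Of these, 29 genes were closest in all 3 G3-MB lines and 8 in all 4 lines. Counting genes that overlapped a region or were closest, 50 genes were found in all 3 G3-MB lines and 15 of them in UW228 too. Genes with a region wholly inside in all 3 G3-MB lines numbered 15, among them *MSI2*, *GSE1*, *SSBP3*, *ZMIZ1* and, named after their values were seen, *PRKCE* and *IQSEC1*. Of the 15, *TEAD1* and *LHFPL2* had one in UW228 as well.

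Several gene lists were set against these regions, with a gene counted where it overlapped one or was closest. Of all genes, 3.38% met this (MB002), 5.22% (D425), 1.32% (HD-MB03) and 2.52% (UW228). Of the genes that the study selected as SE-associated dependencies of G3-MB, 13 were analysed here, and 6 of these met it (MB002), 6 (D425), 3 (HD-MB03) and 0 (UW228). The study chose this list on SEs of G3-MB lines that include these, so the counts are not independent evidence. *SSBP3* met it in all 3 G3-MB lines. *CRX* had a SE of 20 peaks and 78.1 kb at rank 84 in MB002 and one of 15 peaks and 79.0 kb at rank 89 in D425, and both held its TSS. *KIF21B*, a kinesin, had regions of 14 peaks in D425 and 19 peaks in HD-MB03, and only the latter, at rank 26, was a SE. *LRP8*, a receptor for reelin, had 14 peaks in MB002 and 18 in HD-MB03. *OTX2* met it in MB002 alone, with a SE of 17 peaks at rank 7, whose relative input density was 40.8.

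Of 30 genes of photoreceptors and the retina, 7 met it in MB002 and 3 in D425, but none in HD-MB03 or UW228. In MB002 these were the transcription factors *CRX*, *OTX2*, *NR2E3*, *PRDM1*, *SIX3* and *LHX4* and the matrix gene *IMPG2*. The *NR2E3* region lay 162 kb from its TSS. Only the *CRX*, *OTX2* and *SIX3* regions were SEs, and the *PRDM1* region, with 10 peaks and 0.0961 rpm per bp, ranked 4205. *IMPG2* had 18 peaks in MB002 and 18 in D425, over 69.6 kb and 61.0 kb, and was a TE in both, at ranks 402 and 960. D425 also had 2 regions at *ABCA4*, a transporter of the outer segment of photoreceptors, with 16 and 13 peaks. HD-MB03 had no such region at this list and also the fewest regions in all, but it had SEs of fewer peaks at *IMPG2* and *OTX2*, and D425 had one at *OTX2*.

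Of 40 genes of mesenchymal cells, AP-1 and the YAP pathway, 16 met it in UW228 and 12 in D425, against 3 in MB002 and 3 in HD-MB03. Both D425 and UW228 held regions at *TEAD1*, *WWTR1*, *TGFBI*, *SMAD3*, *EGFR* and *CAV1*. *WWTR1* had 31 peaks over 119 kb in UW228, a SE at rank 46, but 10 peaks over 9.07 kb in D425, a TE at rank 4048. *SMAD3*, which transmits TGF-beta signals, had 20 peaks in each and was a SE in both, at ranks 76 in D425 and 208 in UW228. *EGFR* had 2 TEs of 25 and 16 peaks in D425 and a SE of 11 peaks at rank 92 in UW228. *CAV1*, the main protein of caveolae, had a TE of 11 peaks in D425 and a SE of 17 peaks in UW228.

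In UW228 alone were the collagen gene *COL1A2*, with 26 peaks and rank 75, the hyaluronan receptor *CD44*, with 10 peaks and rank 248, the homeobox gene *PRRX1*, with 13 peaks and rank 202, the YAP target *CCN1*, with 12 peaks and rank 370, and the integrins *ITGB1* and *ITGA5*, with 16 and 12 peaks. Those in D425 alone included *AMOTL2*, a YAP regulator with a SE of 15 peaks at rank 35, *LMNA* and *CALD1*. *TBX3* was also counted there, but only as the closest TSS, 710 kb from the region. In D425 *TGFBR2* had a TE of 10 peaks inside the gene, 7.21 kb from its TSS. Another TE of 10 peaks and one of 11 peaks had *TGFBR2* as the closest TSS, at 6.61 kb and 113 kb. The shared medium of D425 and UW228 moved with these counts, and its part was not tested.

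Of 44 neural transcription factors, 3 met it in MB002, *NEUROD1*, *NEUROD4* and *FOXP2*, 3 in D425, *HES6*, *NFIX* and *ZFHX3*, 0 in HD-MB03 and 1 in UW228, *NFIX*. The *NEUROD4* region, with 14 peaks at rank 351, was a SE, and that of *FOXP2*, with 12 peaks at rank 753, a TE. Of 36 genes of axon guidance and adhesion, 6, 4, 3 and 3 met it in MB002, D425, HD-MB03 and UW228. These are 16.7%, 11.1%, 8.33% and 8.33% of the list, above the share of all genes in each line. A region over any part of a gene counts, so long genes are counted more easily. The part of gene length in these shares was not tested. *EFNA5*, an ephrin ligand, had 3 regions in MB002, the largest of 31 peaks and 95.5 kb at rank 144. *SEMA3F*, a secreted semaphorin, had 11 peaks and rank 30 in D425 and 14 peaks and rank 9 in HD-MB03, with 78.0% and 65.8% of the region in peaks. *PLXNA2* had a region in D425, HD-MB03 and UW228.

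Of 14 Hedgehog genes, *GLI2* and *BOC* met it in MB002, *SUFU* met it in HD-MB03, and UW228 and D425 had none. UW228 is labelled as SHH subtype, but only 2.52% of all genes met it there. With so low a share, a count of 0 in a list of 14 genes cannot set this line apart. The region at *SUFU*, which encodes a negative regulator of the pathway, had 12 peaks and rank 55 and was a SE. It overlapped the gene but lay 113 kb from its TSS. The regions of *GLI2* and *BOC* were TEs. None of 39 HOX genes met it in any line.

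**Figure D5:**
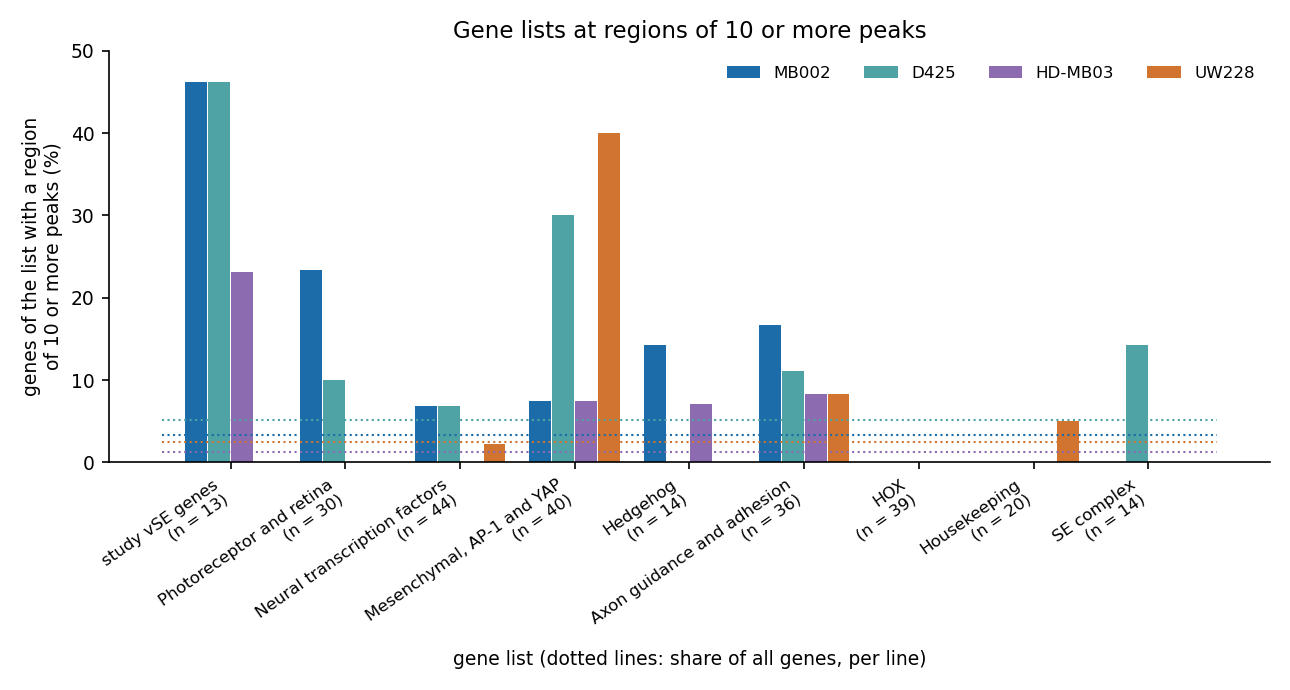
Share of the genes of each list (%) that overlapped or were closest to a region of 10 or more peaks in the 4 lines, with the share of all genes of each line as dotted lines. The mesenchymal, AP-1 and YAP list was highest in UW228, with 16 of 40 genes, and in D425, with 12, and the photoreceptor list in MB002, with 7 of 30.

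In sequence, HD-MB03 stood apart. The median GC content of its regions of 10 or more peaks was 52.5%, against 47.0% for its enhancers with fewer peaks. In MB002 the values were 42.7% and 44.2%, in D425 43.7% and 45.9%, and in UW228 42.8% and 41.2%. Among regions of 30 to 50 kb the values were 52.4% against 49.8% in HD-MB03, 42.7% against 43.1% in MB002, 43.8% against 45.3% in D425 and 43.5% against 41.6% in UW228. Every line kept its direction, and the gap was smaller in the 3 G3-MB lines. In HD-MB03, chromosome 17 held 25 of the 227 regions of 10 or more peaks and 5.31% of all enhancers.

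Motifs were counted over the whole sequence, peaks and gaps together, since the positions of single peaks within a region were not analysed here. AP-1 sites numbered 0.210 per kb in the UW228 regions of 10 or more peaks, above the 0.174 of MB002, 0.184 of D425 and 0.169 of HD-MB03. In UW228 single-peak enhancers they numbered 0.399 per kb, and in all UW228 enhancers with fewer than 10 peaks 0.264. Among UW228 regions of 30 to 50 kb they numbered 0.214 per kb with 10 or more peaks and 0.209 with fewer. TAATCC numbered 0.861 per kb in the regions of MB002, 0.911 in those of D425, 0.666 in those of HD-MB03 and 0.849 in those of UW228. The E-box CAGCTG was most frequent in HD-MB03, at 0.810 per kb against 0.453 to 0.515 in the other lines. HD-MB03 enhancers with fewer peaks were also above those of the other lines, at 0.678 against 0.443 to 0.505.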

How the data were processed

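H3K27Ac ChIP-seq of 4 MB lines was analysed, with 1 H3K27Ac library and 1 input library per line. According to the submitters' processing notes and the study's methods, the authors used Bowtie2 (2.3.0), SAMtools (1.9) and MACS2 (2.2.6), excluded peaks within 2.5 kb of a TSS (some peaks on a TSS remain in the files), and stitched peaks with ROSE. The stitching distance was 12.5 kb in the methods and 12 kb in the file headers. The deposited signal, made by the authors with ROSE, is the read density (rpm per bp) times region length, for H3K27Ac and input. The number of peaks, their summed length, the rank and the SE call were used as deposited. Sequencing depth is not given in the files, so no counting interval could be computed for the signal.

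Regions with 10 or more peaks were compared with the others in Python (3.11.15) with numpy (2.4.6), pandas (2.3.3), scipy (1.17.1), pysam (0.24.0) and matplotlib (3.10.9). Of 29864 curated genes of RefSeq, 27337 took their strand from GENCODE 44 and were used, and the TSS was the 5′ end of the gene. Sequence came from hg38. Scripts were tested on simulated data. No test was run, since no line had a replicate. Members and gene lists were chosen with earlier results of these data known. Genes named were those closest to the 5 regions with most peaks per line, to up to 8 loci of each sharing class, to regions of extreme fraction, signal or rank, and those of the lists. Where a region lay inside or across another gene, that gene was named in place of the closest, a choice made after the values were seen. Alternatives were another peak minimum, comparator, length range, input treatment, overlap and gene assignment. Some items are not reported here.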

Additional observations from a re-analysis of the deposited data

Results flagged for a closer look

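The ratio of the median signal per bp of the regions of 10 or more peaks to that of all enhancers with fewer peaks lay below 1 in the 3 G3-MB lines and above 1 in UW228. It was 0.979 (MB002), 0.873 (D425), 0.773 (HD-MB03) and 1.07 (UW228). This was 1 of 18 such contrasts looked at in which the G3-MB lines shared a direction and UW228 had the opposite one. The difference between the lines was not tested, since each had 1 library, and against enhancers of 2 to 9 peaks the ratio lay above 1 in every line.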

How the results depend on the processing

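Of 111 alternative values, 52 stayed within the 95% exact binomial interval of the reported share or within a factor of 1.5 of the reported value, in the same direction, 48 moved further and 11 changed direction. The interval is only a yardstick of size here, since it treats the regions of 1 library as independent, which they are not, and it says nothing about replicates. All 11 were ratios of the median signal per bp to that of enhancers with fewer peaks. Per bp of peak the ratio was 1.83 (MB002), 1.79 (D425), 1.91 (HD-MB03) and 1.67 (UW228), the last in the reported direction. Against 2 to 9 peaks it was 1.18, 1.07 and 1.05 in the G3-MB lines, and within 20 to 50 kb 1.29, 1.54 and 1.27. In MB002 it was also 1.00 without input subtraction and 1.13 with a minimum of 15 peaks. The cause was not tested.

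In the order MB002, D425, HD-MB03 and UW228, a minimum of 8 peaks gave 1236, 1701, 369 and 852 regions, and a minimum of 15 gave 208, 441, 77 and 172. The share of SEs was 22.1%, 20.6%, 33.3% and 58.1% with the lower minimum, 65.9%, 53.1%, 67.5% and 96.5% with the higher, and 16.1%, 17.2%, 27.7% and 49.8% within 20 to 50 kb. The ratio of median lengths, against 2 to 9 peaks, was 6.76, 7.01, 5.91 and 6.70. The share that overlapped another line was 96.4%, 93.0%, 96.9% and 92.6% where any enhancer counted. Over at least 50% of the length it was 28.5% in MB002, 26.1% in D425 and 22.1% in UW228, and with SEs of the other line 25.4% in MB002, 38.8% in HD-MB03 and 16.8% in UW228. With a minimum of 8 peaks it was 38.5% in MB002 and 35.4% in D425, and with 15 it was 29.8% in MB002, 23.6% in D425 and 27.3% in UW228. Leaving out UW228, an alternative chosen after seeing the data like that without high input, gave 21.5% in D425. Counting every gene that overlapped, had a TSS within 50 kb or was closest gave 1265, 2255, 592 and 989 genes. Genes shared by the 3 G3-MB lines then numbered 69, against 59 with a minimum of 8 peaks and 8 with 15.

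With 1 library per line no replicate was left out. No paired analysis was possible because no line had a second library. The depth behind the signal is unknown, so the precision of each value is unknown too.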
